A study of Mus musculus with 8 samples.

Results

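The stria vascularis ion transport genes followed here are Kcnq1, Kcne1, Bsnd, Slc12a2, Atp1b2 and Esrrb, 6 of the 36536 gene identifiers that were counted. They were chosen by symbol for their known work in the stria, with earlier results of these data known. All 6 were found in the mouse genome annotation NCBIM37 (mm9) and all 6 passed the filter on low counts in every comparison. The libraries were made from cochleas of Lfng-GFP BAC transgenic mice, B6;FVB-Tg(Lfng-EGFP)HM340Gsat/Mmucd, at postnatal day 1 (P1) and postnatal day 6 (P6). All 4 groups carried the transgene, and none was cultured or treated. At each age cells with the brightest GFP and cells without it were collected by sorting, which gave the groups P1 GFP+, P1 GFP-, P6 GFP+ and P6 GFP- with 2 libraries each. The EGFP is driven by Lfng sequences carried on a bacterial artificial chromosome, which label most kinds of cochlear supporting cell but not the inner pillar cells. Cells of low GFP were not collected and are in neither fraction. GFP- thus holds the cells without GFP, of every kind that the dissection left. At P1 the lateral wall with the stria was taken off before dissociation, whereas at P6 it was only partly removed, so that age and dissection cannot be told apart. The sources do not say that the replicates were separate animals, and p-values measure only the spread between libraries.

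The stria vascularis is the epithelium of the cochlear lateral wall that secretes potassium into the endolymph and maintains its positive potential, without which hair cells cannot transduce sound. Its marginal cells take up potassium from the intrastrial space through the cotransporter NKCC1 (Slc12a2) and the Na,K-ATPase, and release it into the endolymph through the channel formed by KCNQ1 and its small subunit KCNE1. Chloride that entered with the potassium returns through basolateral channels, for which barttin (Bsnd) is needed, and the nuclear receptor ESRRB is required for marginal cells to take on this identity. Loss of function of Kcnq1, Kcne1, Bsnd or Esrrb causes deafness. Some of these genes have work outside the stria: Slc12a2 is made by many epithelial and fibrocyte cells, and Atp1b2, a beta subunit of the Na,K-ATPase, was first described as an adhesion molecule of glia.

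Promoter sequence from RefSeq (build GRCm38.p6) was held for 1 of the 6 members, Esrrb, the transcription factor of the group. It has 2 annotated starts on the plus strand of chromosome 12. The 250 bases before each are shown, 5′ to 3′, because they lie directly before the annotated starts of its transcripts. The windows are chr12:86360867-86361116 and chr12:86421394-86421643, and capitals mark matches to any of the motifs searched.
Esrrb, first start: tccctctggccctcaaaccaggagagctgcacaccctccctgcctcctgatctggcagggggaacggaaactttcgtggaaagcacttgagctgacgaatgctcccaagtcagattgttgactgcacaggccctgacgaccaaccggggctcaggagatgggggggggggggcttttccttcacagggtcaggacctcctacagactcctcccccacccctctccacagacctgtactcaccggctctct
Esrrb, second start: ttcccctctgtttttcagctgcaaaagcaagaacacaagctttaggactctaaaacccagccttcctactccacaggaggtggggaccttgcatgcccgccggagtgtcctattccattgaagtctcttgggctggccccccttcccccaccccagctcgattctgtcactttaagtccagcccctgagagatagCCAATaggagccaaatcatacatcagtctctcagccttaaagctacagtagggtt
The motifs were AAGGTCA (the single site bound by ESRRB and its relatives), TATAAA and CCAAT, read on both strands. The first window held none of them, and the second held CCAAT once, at position 196 of the window. CCAAT was present in 33.8% of all 32851 such windows, TATAAA in 12.4% and AAGGTCA in 4.08%. A match is only a run of letters, and these libraries hold no measurement of binding. Kcnq1, Kcne1, Bsnd, Slc12a2 and Atp1b2 are not in the promoter table used here.

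Kcnq1 (ENSMUSG00000009545) lies on chromosome 7 at 150293159 to 150612955 on the plus strand, and its merged exons span 3087 bases. Kcne1 (ENSMUSG00000039639) lies on chromosome 16 at 92346246 to 92359713 on the minus strand, with 3195 exon bases. Bsnd (ENSMUSG00000025418) is on chromosome 4 at 106156061 to 106164888, minus strand, with 2756 exon bases. Slc12a2 (ENSMUSG00000024597) is on chromosome 18 at 58038332 to 58106475, plus strand, with 6520 exon bases. Atp1b2 (ENSMUSG00000041329) is on chromosome 11 at 69413238 to 69419444, minus strand, with 4085 exon bases. Esrrb (ENSMUSG00000021255) is on chromosome 12 at 87702067 to 87862578, plus strand, with 6047 exon bases. All these positions are on mm9, an earlier build than that of the promoter windows. No annotated gene overlapped a member, but the library kit does not keep the strand, so reads from an unannotated antisense RNA could not be told apart from reads of the gene.

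Depth ran from 17769024 to 67695039 reads on genes per library, and P6 GFP+ replicate 1 was the shallowest. Levels are given as CPM, the gene's count after every library's total on genes was scaled to 1000000, with exact Clopper-Pearson intervals at 95% that cover counting error only. The sort separated supporting cells in all libraries. The summed level of 5 supporting cell genes (Lfng, Hes5, Prox1, Sox2, Fgfr3) was 3912 to 6354 CPM in the GFP+ libraries. In the GFP- libraries it was 62.6 to 127 CPM. Lfng, the largest term in GFP+, is no independent check, because its sequences drive the EGFP. Group means of Fgfr3, Sox2, Prox1 and Hes5 were 2083, 603, 542 and 161 CPM in P1 GFP+. In P1 GFP- they were 23.8, 27.9, 13.1 and 0.552 CPM. At P6 they were 1293, 322, 107 and 19.2 CPM in GFP+ and 39.0, 37.9, 3.25 and 0.109 CPM in GFP-. Hair cell genes were not depleted from GFP+, where 4 of 6 (Atoh1, Pou4f3, Otof and, by age, Myo7a or Slc26a5) were called higher at each age. P6 GFP+ replicate 2 stood apart from replicate 1. Of 26 marker genes of strial intermediate and basal cells, root and outer sulcus cells, Reissner's membrane, fibrocytes, Schwann cells, neurons, endothelium and macrophages, 25 were higher in replicate 2 and 21 were more than 2-fold higher. In the other groups 11 or 12 of the 26 were higher in replicate 2.

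The 6 genes fell into sets of very different level. Per kilobase of exon, the scale on which genes can be set beside each other, Slc12a2 was at 27.7 to 168 CPM and Atp1b2 at 18.1 to 94.4 CPM over the 8 libraries. Kcnq1, Kcne1, Bsnd and Esrrb were scarce, none of them above 7.07 CPM per kilobase in any library, and the 4 peaked in the same library, P6 GFP+ replicate 2. In bulk RNA, fewer cells of a type and less RNA per cell cannot be told apart.

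**Figure D1:**
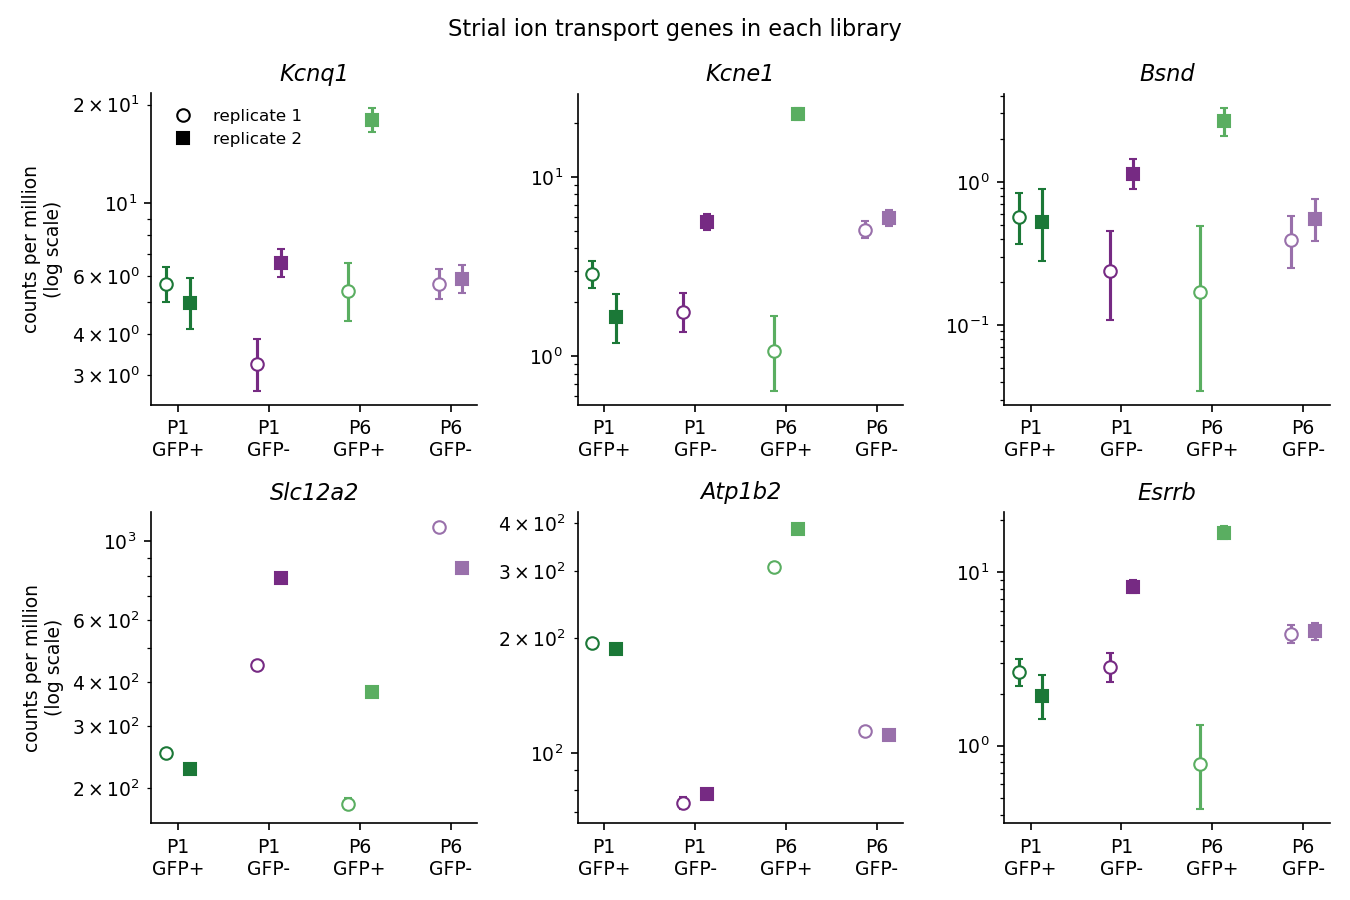
Level of each of the 6 genes in each of the 8 libraries, in CPM on a log scale that differs between panels. Open circles are replicate 1, filled squares replicate 2, and bars are 95% counting intervals. Kcnq1, Kcne1, Bsnd and Esrrb are highest in P6 GFP+ replicate 2, Slc12a2 is higher in GFP- than in GFP+ libraries, and Atp1b2 is higher in GFP+ libraries.

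Kcnq1 encodes the pore-forming subunit of the potassium channel of the marginal cell's apical membrane. Its level was 5.70 and 4.98 CPM in the P1 GFP+ libraries, 3.25 and 6.61 in P1 GFP-, 5.40 and 18.0 in P6 GFP+, and 5.71 and 5.89 in P6 GFP-, each pair in the order replicate 1 and replicate 2. A single library was high, P6 GFP+ replicate 2 with an interval of 16.5 to 19.6 CPM, and the other 7 lay between 3.25 and 6.61. By group means the order was P6 GFP+ at 11.7 ± 8.89 CPM, P6 GFP- at 5.80 ± 0.132, P1 GFP+ at 5.34 ± 0.504 and P1 GFP- at 4.93 ± 2.38 (SD, n = 2). In that order only P6 GFP- and P1 GFP+ had libraries that did not overlap, and these means are less than 1 CPM apart.

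Kcne1 encodes the small accessory subunit that slows the opening of the KCNQ1 channel and makes it suited to steady secretion. Its level was 2.86 and 1.65 CPM in P1 GFP+, 1.77 and 5.63 in P1 GFP-, 1.07 and 22.6 in P6 GFP+, and 5.09 and 5.91 in P6 GFP-. The P6 GFP+ libraries were thus at once the lowest and the highest of the 8, with 19 and 675 reads. The group means were 11.8 ± 15.2 CPM in P6 GFP+, 5.50 ± 0.578 in P6 GFP-, 3.70 ± 2.73 in P1 GFP- and 2.25 ± 0.857 in P1 GFP+ (SD, n = 2), and no neighbours in that order were separated. Per kilobase of exon, Kcne1 stood at 0.191 of the Kcnq1 level in P6 GFP+ replicate 1 and at 1.21 of it in replicate 2. In P6 GFP- the same ratio was 0.862 and 0.969, and in P1 GFP+ it was 0.485 and 0.319.

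Bsnd encodes barttin, an accessory protein of chloride channels in the basolateral membrane. It was the scarcest member, at 0.0613 to 0.960 CPM per kilobase of exon, with 26 and 13 reads in P1 GFP+, 9 and 72 in P1 GFP-, 3 and 79 in P6 GFP+, and 24 and 37 in P6 GFP-. These correspond to 0.567 and 0.522 CPM, 0.238 and 1.14 CPM, 0.169 and 2.64 CPM, and 0.389 and 0.547 CPM. The P6 GFP+ libraries again held the lowest and the highest value, the first with an interval of 0.0348 to 0.493 CPM. No 2 groups that were neighbours by mean level were separated.

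Esrrb, the nuclear receptor of marginal cells, followed Kcne1. Its level was 2.66 and 1.93 CPM in P1 GFP+, 2.85 and 8.29 in P1 GFP-, 0.788 and 17.0 in P6 GFP+, and 4.44 and 4.58 in P6 GFP-. P6 GFP+ replicate 1 was the lowest library with 14 reads, and P6 GFP+ replicate 2 the highest with 507. The group means ran from 8.88 ± 11.4 CPM in P6 GFP+ through 5.57 ± 3.84 in P1 GFP- and 4.51 ± 0.0969 in P6 GFP- to 2.30 ± 0.519 in P1 GFP+ (SD, n = 2). Between neighbours in that order, only P6 GFP- and P1 GFP+ did not overlap.

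Slc12a2 encodes NKCC1, which brings sodium, potassium and chloride into the marginal cell. Its level was 252 and 227 CPM in P1 GFP+, 446 and 790 in P1 GFP-, 181 and 375 in P6 GFP+, and 1097 and 842 in P6 GFP-. Every GFP- library was above every GFP+ library. The group means were 969 ± 180 CPM in P6 GFP-, 618 ± 243 in P1 GFP-, 278 ± 138 in P6 GFP+ and 239 ± 17.9 in P1 GFP+ (SD, n = 2), and only the GFP+ groups overlapped with each other.

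Atp1b2 encodes the beta 2 subunit of the Na,K-ATPase. It was at 194 and 188 CPM in P1 GFP+, 74.1 and 77.9 in P1 GFP-, 306 and 386 in P6 GFP+, and 114 and 111 in P6 GFP-. The groups did not overlap with each other, in the order P6 GFP+ (346 ± 56.1 CPM), P1 GFP+ (191 ± 4.76), P6 GFP- (113 ± 2.31) and P1 GFP- (76.0 ± 2.74; SD, n = 2). The replicates of a group differed by 1.26-fold at most, in P6 GFP+.

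The first comparison was GFP+ against GFP- cells at P1, after removal of the lateral wall, and it asked which genes mark the supporting cells. Atp1b2 was higher in GFP+ cells by 1.44 ± 0.0889 on the log2 scale (fitted difference ± SE), a 2.70-fold difference (adjusted p = 7.24e-05, edgeR quasi-likelihood test). Slc12a2 was lower in GFP+ cells, with a difference of -1.26 ± 0.264 (adjusted p = 0.0089, edgeR). These 2 of 6 were called at an adjusted p below 0.01, where 37.3% of the 18682 genes tested were called, 16.6% higher and 20.7% lower. Esrrb was lower in both GFP+ libraries than in either GFP- library and had a difference of -1.16 ± 0.516, which did not pass the test (adjusted p = 0.106, edgeR). Kcnq1 (0.22 ± 0.353), Kcne1 (-0.59 ± 0.574) and Bsnd (-0.29 ± 0.698) overlapped between the groups and did not pass, and their 95% intervals were -0.65 to 1.08, -2.01 to 0.82 and -2.00 to 1.43. The Slc12a2 call was kept when either P1 GFP- library was left out and lost in other fits: the adjusted p was 0.0378 without P1 GFP+ replicate 1, 0.0585 without P1 GFP+ replicate 2 and 0.0223 with all 8 libraries in the fit (edgeR), with the same direction in each. Leaving out P1 GFP- replicate 1 gave 4 calls, the others being Kcne1 and Esrrb at -1.18 and -1.73, where 50.3% of all genes were called. Without P1 GFP- replicate 2, where 51.3% of all genes were called, Kcnq1 was called at 0.82 and the Kcne1 and Bsnd differences turned to 0.49 and 1.29.

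In GFP+ against GFP- cells at P6, Atp1b2 was again higher in GFP+ cells, by 1.61 ± 0.19 on the log2 scale or 3.05-fold (adjusted p = 0.00377, edgeR). It was the only one of 6 members called, where 12.9% of 18294 genes were called, 7.72% higher and 5.19% lower. Slc12a2 had a difference of -1.82 ± 0.383, and its libraries did not overlap, but its adjusted p was 0.0182 (edgeR). It passed with DESeq2 (adjusted p = 3.46e-05) and with all 8 libraries in the fit (adjusted p = 0.00519, edgeR). Kcnq1, Kcne1, Bsnd and Esrrb had differences of 1.01 ± 0.529, 1.10 ± 1.08, 1.64 ± 0.964 and 0.98 ± 1.07, with overlapping libraries and adjusted p from 0.198 to 0.523 (edgeR).

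The sign of those 4 differences at P6 rested on P6 GFP+ replicate 2. Without it, the differences for Kcne1 and Esrrb were -2.34 ± 0.356 and -2.49 ± 0.389, both called as lower in GFP+ cells (adjusted p = 4.81e-05 and 6.12e-05, edgeR), and Kcnq1 and Bsnd stood at -0.083 and -1.44 without passing. Slc12a2 was then also called, at -2.41, which gave 4 of 6 with Atp1b2 at 1.46, where 40.5% of all genes were called. Without P6 GFP+ replicate 1 instead, all 6 were called, with Kcnq1, Kcne1, Bsnd and Esrrb higher in GFP+ cells by 1.66, 2.06, 2.52 and 1.94, where 29.2% of all genes were called. The lone GFP+ library in such a fit is assumed to vary like the GFP- pair. When either P6 GFP- library was left out the Atp1b2 call was lost (adjusted p = 0.031 without replicate 1 and 0.0463 without replicate 2, edgeR) and no member passed, where 2.01% and 0% of all genes were called.

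**Figure D2:**
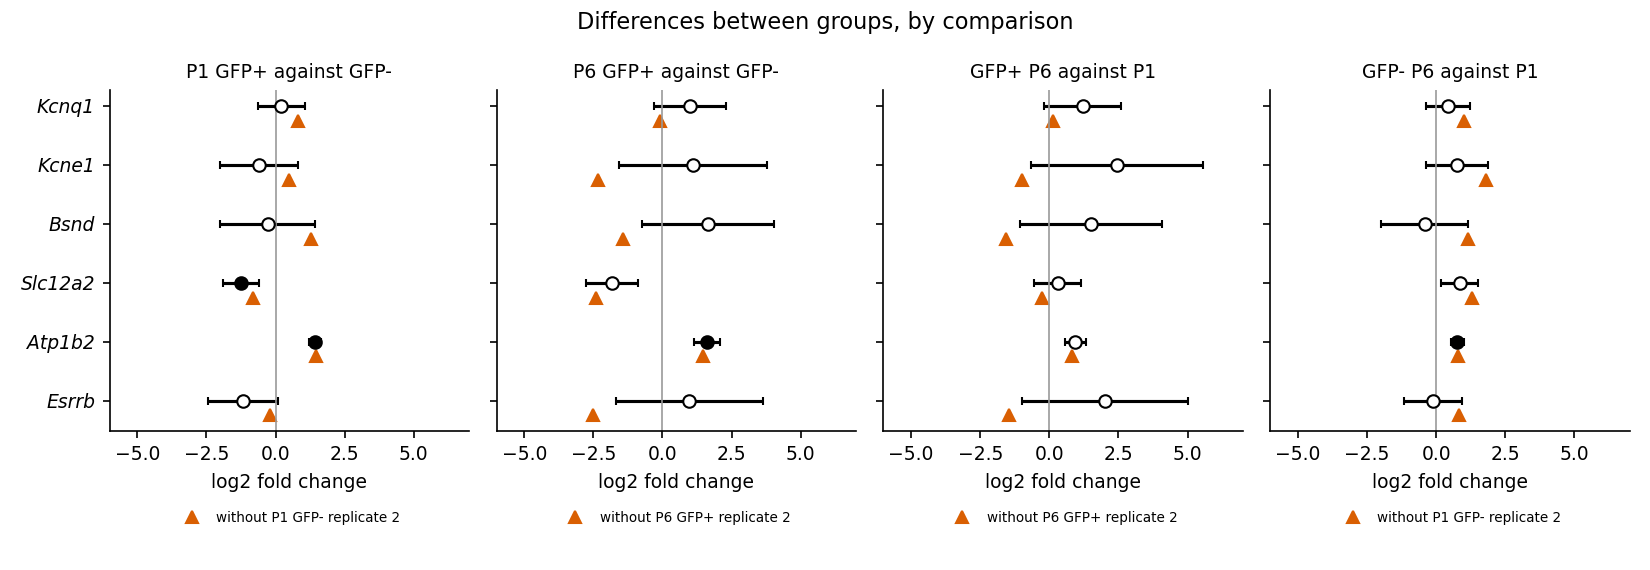
Fitted log2 differences of the 6 genes in the 4 comparisons (circles, with 95% confidence intervals from the edgeR fit of 4 libraries; filled where the adjusted p is below 0.01) and the same differences without the library named under each panel (triangles). Without P6 GFP+ replicate 2, Kcne1, Bsnd and Esrrb change sign in both panels concerned, Kcnq1 in P6 GFP+ against GFP- and Slc12a2 in GFP+ P6 against P1, whereas Atp1b2 stays above 0 in every panel.

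The gap between the P6 GFP+ replicates was widest for Kcne1 and Esrrb. Among 15477 genes with a mean of at least 1 CPM over the 8 libraries, 0 had a larger ratio of replicate 2 to replicate 1 than Kcne1, on a scale of CPM + 1, and 1 had a larger ratio than Esrrb. The ratio of the CPM themselves was 21.1 for Kcne1, 21.5 for Esrrb, 15.7 for Bsnd and 3.33 for Kcnq1, and it was 2.08 for Slc12a2 and 1.26 for Atp1b2. On the CPM + 1 scale, 310 genes exceeded Bsnd, 370 Kcnq1, 1092 Slc12a2 and 4518 Atp1b2. Bsnd had a mean below 1 CPM over the 8 libraries, so it was set beside the 15477 genes without being among them. Lmx1a, a transcription factor of the developing stria and other otic epithelia, was at 12.7 and 22.0 CPM.

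Markers of most other cell types were higher in the same library. Summed levels in the P6 GFP+ replicates ran from 93.4 to 370 CPM for 4 fibrocyte genes, from 603 to 1596 for 3 Schwann cell genes, from 19.8 to 85.4 for 2 endothelial genes and from 13.2 to 42.9 for the basal cell gene Cldn11, with replicate 2 the higher in each. The intermediate cell gene Dct was at 23.2 and 73.0 CPM, and Kcnj10, which made up most of the 462 and 626 CPM summed over 6 intermediate cell genes, was at 414 and 512 CPM. The sums ran from 230 to 449 for 3 spindle, root and outer sulcus genes, from 14.4 to 34.9 for 2 Reissner's membrane genes and from 14.0 to 31.7 for 2 macrophage genes, again with replicate 2 higher. In the GFP- libraries of the same age the sums were 2057 to 2119, 926 to 1135, 37.2 to 42.2, 67.8 to 76.8, 674 to 796, 13.1 to 17.5 and 204 to 241 CPM in that order of lists, Dct was at 440 and 572 CPM and Kcnj10 at 87.3 and 101 CPM. The 3 neuronal genes differed less in sum: they were at 50.03 and 53.9 CPM in the P6 GFP+ replicates and 47.1 to 67.5 CPM in P6 GFP-, 2 of the 3 being higher in GFP+ replicate 2 and Tubb3 lower, at 28.2 against 35.2 CPM. Of these genes Foxi1 was at 0 in P6 GFP+ replicate 1, and none was at 0 in replicate 2. The sum of the 5 supporting cell genes was lower in replicate 2, at 3912 against 5689 CPM. Lfng, its largest term, was at 2365 against 3755 CPM, and 1 of the 5, Prox1, was higher, at 133 against 81.4 CPM. The part that these cells have in the Kcne1, Esrrb, Bsnd and Kcnq1 values was not tested. In P1 GFP-, all 6 members were higher in replicate 2 than in replicate 1 and 4 were more than 2-fold higher. In that library the 3 neuronal genes summed to 276 CPM against 80.6, and all 3 were more than 2-fold higher. The 5 other marginal cell genes were also all higher there (754 against 460 CPM in sum). So were 5 of 5 supporting cell genes (118 against 62.6 CPM) and 2 of 2 Reissner's membrane genes (25.7 against 15.4 CPM). Of 3 spindle, root and outer sulcus genes, Epyc was higher (533 against 172 CPM), Slc26a4 was lower (6.35 against 7.52 CPM) and Foxi1 was at 0 in both. Only 1 of 6 intermediate cell, 2 of 6 hair cell, 2 of 4 fibrocyte and 2 of 3 Schwann cell genes were higher. For endothelial, macrophage and basal cell genes it was 1 of 2, 0 of 2 and 0 of 1. The part of these cells in the P1 GFP- values was not tested.

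**Figure D3:**
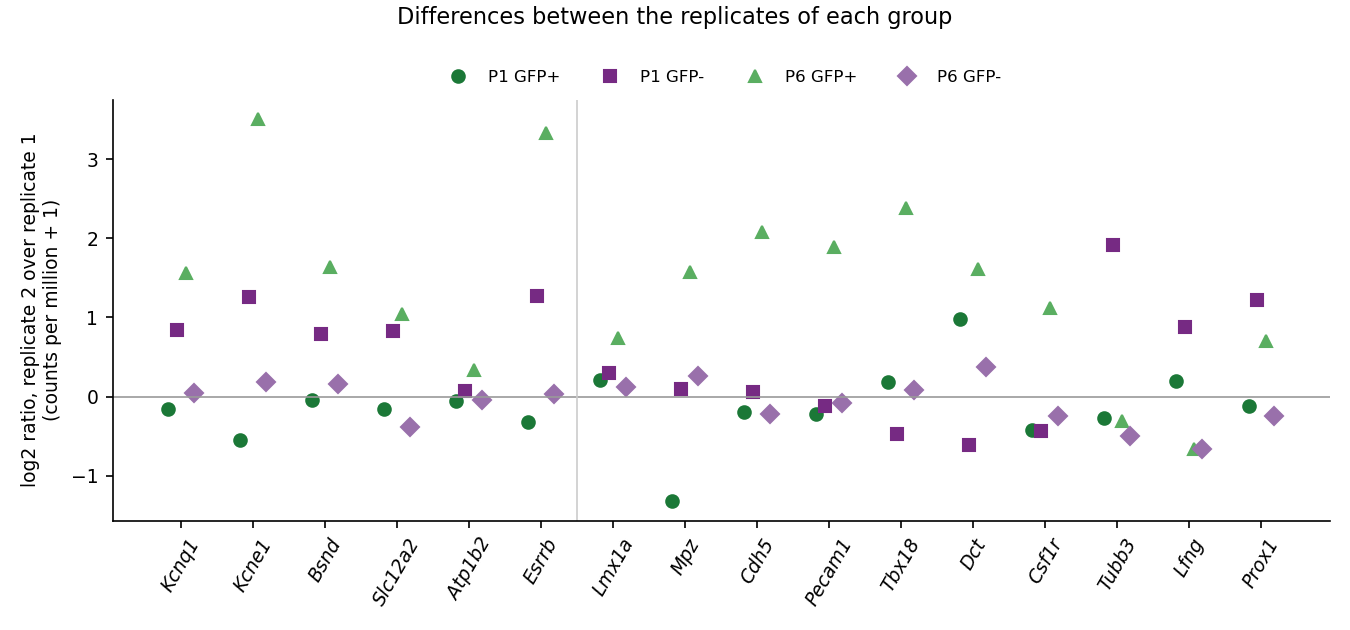
Log2 ratio of replicate 2 to replicate 1 in each group, on CPM + 1, for the 6 genes (left of the line) and markers of other cells (right). Kcne1 and Esrrb in P6 GFP+ lie highest, all 6 genes lie above 0 in P6 GFP+ and P1 GFP-, and all lie below 0 in P1 GFP+.

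The third comparison was P6 against P1 in GFP+ cells, which follows the supporting cell fraction through the first postnatal week. No member was called (0 of 6, edgeR) where 4.81% of 17213 genes were called, 2.86% higher and 1.95% lower, with 1 at an unadjusted p below 0.05 and 1 called by DESeq2, Atp1b2 in both. Atp1b2 was higher at P6 by 0.95 ± 0.152 (adjusted p = 0.0164, edgeR), and its libraries did not overlap between ages. With DESeq2 its adjusted p was 4.53e-06, and with all 8 libraries in the edgeR fit 0.00221. Kcne1 at 2.45 ± 1.23, Esrrb at 2.03 ± 1.19, Bsnd at 1.5 ± 1.02 and Kcnq1 at 1.22 ± 0.549 had large differences and wide errors, with adjusted p from 0.17 to 0.327 (edgeR). Without P6 GFP+ replicate 2 they were -1.0 for Kcne1, -1.45 for Esrrb (adjusted p = 0.0067, edgeR), -1.56 for Bsnd and 0.13 for Kcnq1, and Atp1b2 at 0.80 was the other call, where 43.2% of all genes were called. Without P6 GFP+ replicate 1 all 6 were called as higher at P6, with differences from 0.71 for Slc12a2 to 3.31 for Kcne1, and 35.3% of all genes were called in that fit. Slc12a2 in the full fit was at 0.30 ± 0.333.

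In GFP- cells, P6 against P1, Atp1b2 was higher at P6 by 0.76 ± 0.103, or 1.70-fold (adjusted p = 0.00398, edgeR). It was 1 of 6 called, where 7.38% of 18920 genes were called, 5.04% higher and 2.34% lower. The call was lost when libraries were scaled by their totals alone (0.57, adjusted p = 0.0114, edgeR), a scaling that moved the median of all genes to -0.21, when all 8 libraries entered the fit (adjusted p = 0.01004), and without P6 GFP- replicate 1 or 2 (adjusted p = 0.0338 and 0.0182), where 1.26% and 1.88% of all genes were called. Slc12a2 was higher in both P6 GFP- libraries than in either P1 GFP- library, with a difference of 0.85 ± 0.281 and an adjusted p of 0.0805 (edgeR). It passed with DESeq2 (adjusted p = 0.0066) and, at 1.30, without P1 GFP- replicate 2 (adjusted p = 1.15e-04, edgeR), where Kcne1 at 1.81 was called as well and 15.6% of all genes were called. Kcnq1 (0.42 ± 0.334), Kcne1 (0.75 ± 0.475), Bsnd (-0.42 ± 0.666) and Esrrb (-0.12 ± 0.447) overlapped between the ages and did not pass, and without P1 GFP- replicate 2 those of Bsnd and Esrrb turned to 1.15 and 0.84. The age comparisons share libraries with the comparisons between sorted fractions, so the 4 sets of values are not independent.

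Whether the GFP+ against GFP- difference itself changed with age was tested in a fit of all 8 libraries. No member was called (0 of 6, edgeR) where 1.93% of 19233 genes were, 0 had an unadjusted p below 0.05 and 0 were called by DESeq2. The change was 0.16 ± 0.193 for Atp1b2 (95% interval -0.29 to 0.60) and -0.57 ± 0.516 for Slc12a2 (-1.76 to 0.62). For Esrrb it was 2.13 ± 1.4, for Bsnd 1.92 ± 1.36, for Kcne1 1.69 ± 1.45 and for Kcnq1 0.78 ± 0.72, and each of these 4 became negative without P6 GFP+ replicate 2. A stricter limit of more than 4-fold together with an adjusted p below 0.01 was met by no member in any comparison, against 17.8%, 7.98%, 2.56%, 1.85% and 1.26% of genes in the order the comparisons are given.

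The genes that work beside the members were read from a list of 31 by role. In P1 GFP+ against GFP- cells, 28 of the 31 were tested, 5 were higher and 8 lower in GFP+ cells beside 37.3% of all genes called, with a median difference of -0.25 where that of all genes was 0.01. Kcne4, a relative of Kcne1, was lower, at -4.41 (adjusted p = 0.00241, edgeR). The potassium-chloride cotransporter Slc12a7, which lets both ions leave the cell, was higher by 1.25 (adjusted p = 0.00154). Stk39 and Oxsr1, the kinases that switch NKCC1 on, were at 0.19 and 0.03 without passing. Esrrg was lower, at -3.56 (adjusted p = 0.00444), and Esrra was at -0.11.

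At P6, 28 partners were tested and 3 were called, 2 higher and 1 lower, beside 12.9% of all genes. Among them Slc12a7 was higher in GFP+ cells by 2.58 (adjusted p = 0.00108, edgeR), and Slc12a4, another potassium-chloride cotransporter, was lower, at -2.40 (adjusted p = 0.00607). The median over the list was -0.00066, and over all genes -0.02. Stk39 (0.74), Oxsr1 (0.18), Esrra (-0.33) and Esrrg (-1.87) did not pass. In GFP+ cells from P1 to P6, 26 were tested, 4 rose and 0 fell, with a median of 0.40, beside 4.81% of all genes called. Among them were Atp1b1 (1.24), Atp1b3 (1.15) and Slc12a7 (1.09), with adjusted p from 0.00605 to 0.00796 (edgeR). In GFP- cells from P1 to P6, 28 were tested, 4 rose and 2 fell, among them Kcne4 (1.93) and Slc12a4 (1.23) upwards and Wnk2 (-0.64) downwards, beside 7.38% of all genes called. No partner was called for a change of the GFP difference with age, beside 1.93% of all genes.

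Potassium and chloride transport by NKCC1 can be set beside the outward cotransporter KCC4 (Slc12a7), which works in potassium recycling by Deiters' cells. Per kilobase of exon, Slc12a2 stood at 0.814 and 0.725 of the Slc12a7 level in P1 GFP+ and at 0.296 and 0.591 of it in P6 GFP+. In GFP- cells the ratio was 3.85 and 4.79 at P1 and 10.1 and 8.53 at P6. No GFP+ library came near the lowest GFP- library.

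The beta subunit of the Na,K-ATPase brings the pump to the membrane. In P1 GFP+ cells Atp1b2 held 31.1% and 30.4% of the summed level per kilobase of Atp1b1, Atp1b2 and Atp1b3, and in P6 GFP+ cells 24.0% and 30.0%. Its share was 13.9% and 10.3% in P1 GFP- cells and 11.2% and 12.1% in P6 GFP- cells, below every GFP+ library. Atp1b1, the usual partner in most epithelia, held 44.5% and 44.4% in P1 GFP+ and 28.3% and 52.0% in P1 GFP- libraries. At P6 its share was 49.2% and 46.4% in GFP+ and 42.6% and 38.9% in GFP- libraries, which did not overlap. In GFP+ against GFP- cells, Atp1b1 stood at 0.13 ± 0.40 on the log2 scale at P1 and at 0.62 ± 0.20 at P6 without passing. Atp1b3 was lower in GFP+ cells at P1, at -0.84 ± 0.09 (adjusted p = 5.66e-04, edgeR), and stood at -0.53 ± 0.17 at P6 without passing.

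**Figure D4:**
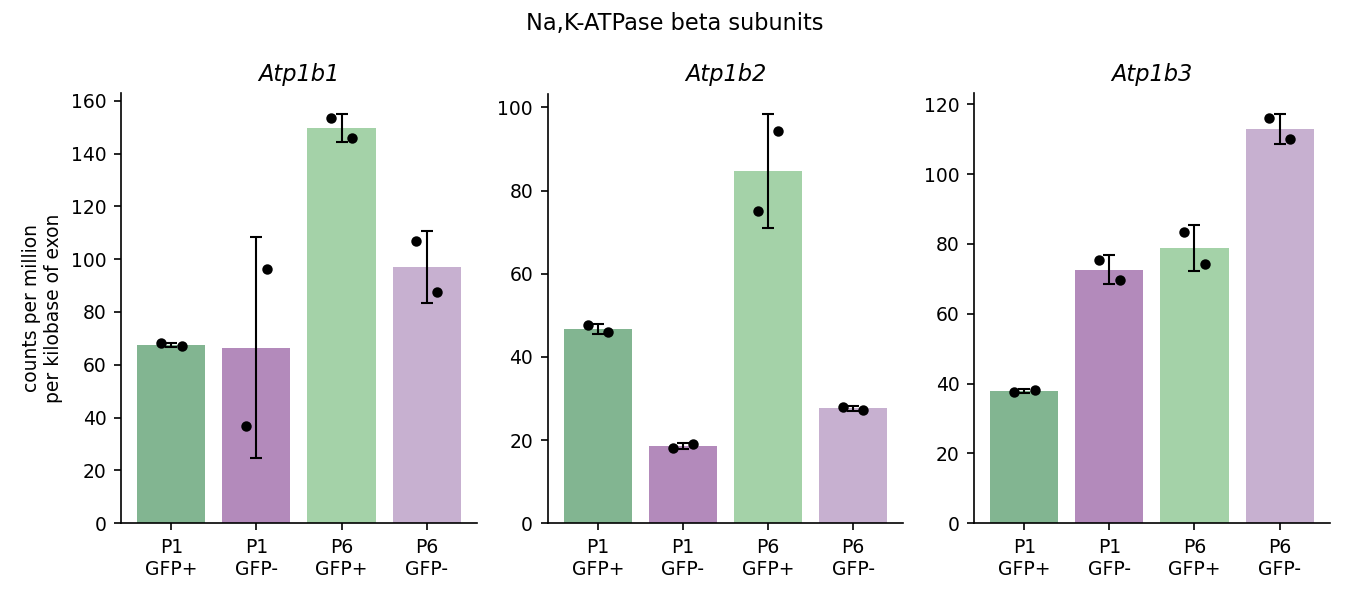
Level per kilobase of exon of 3 Na,K-ATPase beta subunit genes in each group, in CPM per kilobase. Bars are means of 2 libraries, points the libraries and error bars the SD. Atp1b2 is higher in both GFP+ groups than in either GFP- group, and Atp1b1 and Atp1b3 are higher in P6 GFP+ than in P1 GFP+.

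Esrrb was a small part of its receptor family. It made up 3.03% to 4.15% of the summed level per kilobase of Esrra, Esrrb and Esrrg in P1 GFP+ libraries, 3.36% and 6.26% in P1 GFP-, and 5.14% and 4.58% in P6 GFP-. In P6 GFP+ it was 1.27% in replicate 1 and 20.2% in replicate 2.

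Likeness of pattern was measured as Pearson's r of log2(CPM + 1) over the 8 libraries, which come in pairs from 4 groups and differ in depth, and is a description only. The 4 scarce members had r between 0.77 and 0.95 in their 6 pairs, and between 0.38 and 0.90 without P6 GFP+ replicate 2, the highest in both being Kcne1 with Esrrb. Without that library Kcne1 and Esrrb had r = 0.89 and 0.86 with Slc12a2, against 0.45 and 0.52 with it. Slc12a2 with Atp1b2 had r = -0.67. Among the 15477 genes, those most like Esrrb were Secisbp2l (r = 0.97), Lrp2 (0.91) and Fat2 (0.91). Lrp2, the endocytic receptor megalin of marginal cells and other absorptive epithelia, was at 17.5 and 136 CPM in the P6 GFP+ replicates and at 72.3 and 159 CPM in P1 GFP-. Most like Kcnq1 were Mgat4a (0.93), Plxna4 (0.92) and Spns2 (0.91), and Spns2, a sphingosine-1-phosphate transporter, and Mgat4a were also among the 3 nearest to Kcne1 behind Slc17a8 (0.93). The nearest to Bsnd were 4930556M19Rik (0.95), Slc17a8 (0.94) and Mlh3 (0.91). Slc12a2 was followed most closely by Rasl10b, Clic6 and 6330403A02Rik (each 0.99), of which the chloride channel family member Clic6 was at 7.48 to 18.7 CPM in GFP+ and 19.8 to 50.7 CPM in GFP- libraries. Atp1b2 was followed by Tmem211, 1600029D21Rik and Ttc39b (each 0.99). Tmem211 was at 11.9 to 45.0 CPM in GFP+ libraries and 0.369 to 3.60 CPM in GFP- libraries.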

How the data were processed

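RNA was extracted from sorted cochlear cells of 4 groups (P1 GFP+, P1 GFP-, P6 GFP+, P6 GFP-; 2 libraries each) and sequenced as paired ends from an mRNA kit that does not keep strand. The authors aligned reads to mm9 with TopHat (version 1.4.0 in the submitters' processing notes) and counted them per Ensembl gene with HTSeq. The deposited values are raw read counts per gene, 1 table for each library. The counting mode is not given in the sources used here. Rows that name no gene held 23.8% to 35.3% of the counts and were left out of all totals.

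Gene symbols were taken from NCBIM37, where 34391 of the 36536 identifiers were found. The members and lists were chosen with earlier results of these data known. All 6 members were named. Of the partner list, a fixed few were always named, and in each comparison up to 3 others per direction with the largest difference among those called at no less than 1 CPM in the higher group. Some partners are not reported here. The subunit shares name further partners by level, and Lmx1a and the markers were named by level. The 3 genes most like each member were named.

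Counts were tested with edgeR 4.0.16 in R 4.3.3 (filterByExpr with a minimum count of 10 and total of 15, TMM scaling, glmQLFit and glmQLFTest, two-sided), in a fit of the 4 libraries of each comparison and, for the change with age, of all 8. P-values were adjusted by Benjamini-Hochberg over all genes tested, and a gene was called below 0.01. The script was tested on simulated data. Alternatives were DESeq2 1.42.0 and its size factors, library totals, no filter, all 8 libraries, a replicate block and leaving out each library. CPM are counts over the library's total on genes, and per kilobase values divide by merged exon length. Figures were drawn with matplotlib 3.10.9.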

Additional observations from a re-analysis of the deposited data

How the results depend on the processing

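With 2 libraries per group, the count of members called moved by over 1.5 times in 14 pairings of comparison and alternative and by less in 16, those that leave out a library aside, and at 3 reads in its lowest library Bsnd was at the limit of what the depth can resolve. At P1 the count of 2 became 1 with all 8 libraries in the fit and 1 with the replicate block. At P6 the count of 1 became 2 with DESeq2, 2 where low counts were kept and 2 with all 8 libraries. In GFP+ cells from P1 to P6 the count of 0 became 1 with DESeq2, 4 with low counts kept and 1 with all 8 libraries. In GFP- cells from P1 to P6 the count of 1 became 0 with library totals, 2 with DESeq2, 2 with low counts kept and 0 with all 8 libraries. For the change with age it became 2 with low counts kept. The cause was not tested. DESeq2's size factors in edgeR kept each count within 1.5 times.

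Over all genes, the count called at P1 was 6972 with 4 libraries in the fit, 6053 with all 8 and 6363 with the replicate block. At P6 it was 2363 with 4 libraries in the fit, 4891 with DESeq2, 5309 with low counts kept and 5157 with all 8 libraries. In GFP+ cells from P1 to P6 it was 828, 3037, 4090 and 2361 in the same order, and in GFP- cells 1397, 3050, 3993 and 769. It was 372 for the change with age and 2400 there with low counts kept.

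Leaving out each library in turn gave 1 to 4 members called at P1, 0 to 6 at P6, 0 to 6 in GFP+ cells between ages, 0 to 3 in GFP- cells between ages and 0 to 0 for the change with age. The share of all genes called in these fits ranged from 19.0% to 51.3% at P1, 0% to 40.5% at P6, 0.757% to 43.2% between GFP+ ages, 1.26% to 15.6% between GFP- ages and 0.141% to 6.96% for the change with age, or 3675 to 9798, 0 to 7767 and 137 to 7531 genes in the first 3. The differences that changed sign ranged as follows. At P1 they ran from -0.22 to 0.82 for Kcnq1, -1.18 to 0.49 for Kcne1 and -0.97 to 1.29 for Bsnd. At P6 they ran from -0.083 to 1.66 for Kcnq1, -2.34 to 2.06 for Kcne1, -1.44 to 2.52 for Bsnd and -2.49 to 1.94 for Esrrb. In GFP+ cells between ages they ran from -1.0 to 3.31 for Kcne1, -1.56 to 2.32 for Bsnd, -0.28 to 0.71 for Slc12a2 and -1.45 to 2.90 for Esrrb. In GFP- cells between ages they ran from -0.0084 to 1.01 for Kcnq1, -1.10 to 1.15 for Bsnd and -0.70 to 0.84 for Esrrb. For the change with age they ran from -0.31 to 1.37 for Kcnq1, -1.75 to 2.59 for Kcne1, -1.16 to 2.73 for Bsnd and -1.34 to 3.03 for Esrrb. Atp1b2 kept its direction in all of these, from 0.71 to 1.80 over the 4 pairwise comparisons.

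The replicate numbers name no shared animal, and deviations of same-numbered libraries correlated at 0.02 at P1, 0.09 at P6, -0.08 between GFP+ ages and -0.28 between GFP- ages. With the replicate block, the Slc12a2 call at P1 was lost (adjusted p = 0.0123, edgeR), the Bsnd difference at P1 became 0.031 and the Esrrb difference between GFP- ages became 0.062. A crossed pairing of the GFP- libraries, added after the data were seen, gave 2 members called, an Esrrb difference of 0.048 and 3063 genes called in place of 1397. Group mean levels scaled with TMM lay within 0.918 to 1.07 times those given, and 4 of 24 moved by more than 1 SD.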
